A study of Mus musculus with 24 samples.

Results

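The liver takes up bile acids, hormones, drugs and nutrients from blood through carrier proteins and sends the products out again through ATP-driven pumps. The genes described here are those of the Slco and Slc22a families, which carry organic anions, organic cations and carnitine into cells, and those of the ABC families A, B, C and G. Members were chosen by symbol from the deposited gene table, as names starting with Slco, Slc22a, Abca, Abcb, Abcc or Abcg and a digit, without Abcb11, Abcc4, Abca1 and Abcg1. The rule gave 66 of the 18314 genes listed, of which 34 were uptake carriers (12 Slco and 22 Slc22a) and 32 were ABC transporters.

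The study examined HQHF, the Huatanqushihuoxue Formula, a herbal preparation, in mice with diet-induced fatty liver, and its title names ferroptosis, an iron-dependent form of cell death, as a subject. The tissue was liver of wild-type (WT) male C57BL/6 mice, and long RNA was sequenced in 4 mice of each of 3 groups. HFD plus HQHF mice ate a high-fat diet (HFD) and received HQHF by gavage after 12 weeks of that diet. HFD mice ate the high-fat diet without HQHF, and control mice ate normal diet. The study describes low, medium and high doses in groups of 9 mice, and which dose these libraries had is not given in the labels. They give no age. Each mouse has its own batch code, so batch and mouse cannot be told apart.

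Hepatocytes are polarised cells. Carriers of the SLCO (OATP) and SLC22 families sit mostly in the membrane that faces the blood, while pumps such as the P-glycoproteins, ABCC2, ABCG2 and the sterol pump ABCG5/ABCG8 sit in the canalicular membrane that faces bile. Other pumps, such as ABCC1, ABCC3 and ABCC5, send substrates back to blood or work in other cell types. ABCA proteins move lipids, and several ABCB proteins act inside mitochondria or lysosomes.

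Comparisons used 10 libraries, namely HFD plus HQHF 1, 2 and 4, HFD 1 to 4, and control 1, 3 and 4, and values below follow this order. HFD plus HQHF 3 and control 2 stood apart. Alb, which encodes albumin, was at 0.743 and 46.4 counts per 1000000 of all counts in these libraries, against 35054 to 92208 in the other 10. Slco1b2, a carrier typical of hepatocytes, had 1 read in HFD plus HQHF 3 and no read in control 2, which for control 2 allows up to 3 reads of its total. Total counts of the 10 libraries ran from 36198931 to 46454404. Levels are given as CPM, counts per 1000000 reads after TMM scaling, and edgeR's quasi-likelihood test was run on 13832 genes, where an adjusted p (Benjamini-Hochberg, over all of them) under 0.05 made a call. P-values set differences between group means against the spread between these mice, which the fit shares over the 3 groups. This spread also holds any differences between batches.

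Of the 66 members, 50 passed the filter on low counts (21 uptake carriers and 29 ABC transporters). The other 16 held 0 to 136 reads over the 10 libraries, and Slc22a6, the organic anion carrier of kidney, and Slco6d1 held none. A member that passed because it was high in 1 group had to differ between groups, so the counts that follow describe the 50 and are no support in themselves. In HFD against control livers 7 of the 50 members were called higher (14%) beside 16.3% of all genes tested, and 5 were called lower (10%) beside 9.89%. HFD plus HQHF against HFD livers gave 4 members called higher (8%) beside 7.85% of all genes, and 8 called lower (16%) beside 11.1%. These shares lie near those of all genes, so the number of calls is no result about the family, and the results lie in which members moved. No member was called in HFD plus HQHF against control livers, beside 0% of all genes. With all 12 libraries no member was called in any comparison. Leaving out control 4 brought the 12 calls in HFD against control livers to 7, and leaving out HFD plus HQHF 1 or 2 brought the 12 calls in HFD plus HQHF against HFD livers to 4 or 5.

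Uptake carriers and ABC transporters had different medians. Among the 21 tested uptake carriers 2 rose (9.52%) and 1 fell (4.76%) in HFD against control livers, beside 16.3% and 9.89% of all genes. Their median log2 fold change was -0.53, with 16 values below 0. Among the 29 tested ABC transporters 5 rose (17.2%) and 4 fell (13.8%), with a median of 0.19, while the median over all genes was 0.06. In HFD plus HQHF against HFD livers 2 uptake carriers rose and 2 fell (9.52% each) with a median of 0.26. Of the ABC transporters 2 rose (6.90%) and 6 fell (20.7%) with a median of -0.18. Over all genes 7.85% rose and 11.1% fell, with a median of -0.07. Both comparisons use the same 4 HFD libraries, so opposite signs in them are not independent of each other. Leaving out control 4 brought the ABC calls in HFD against control livers to 5. Leaving out HFD plus HQHF 1, 2 or 4 brought the uptake calls in HFD plus HQHF against HFD livers to 1, 2 and 2, and leaving out HFD plus HQHF 1 or 2 or HFD 4 brought the ABC calls to 3, 3 and 5.

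**Figure D1:**
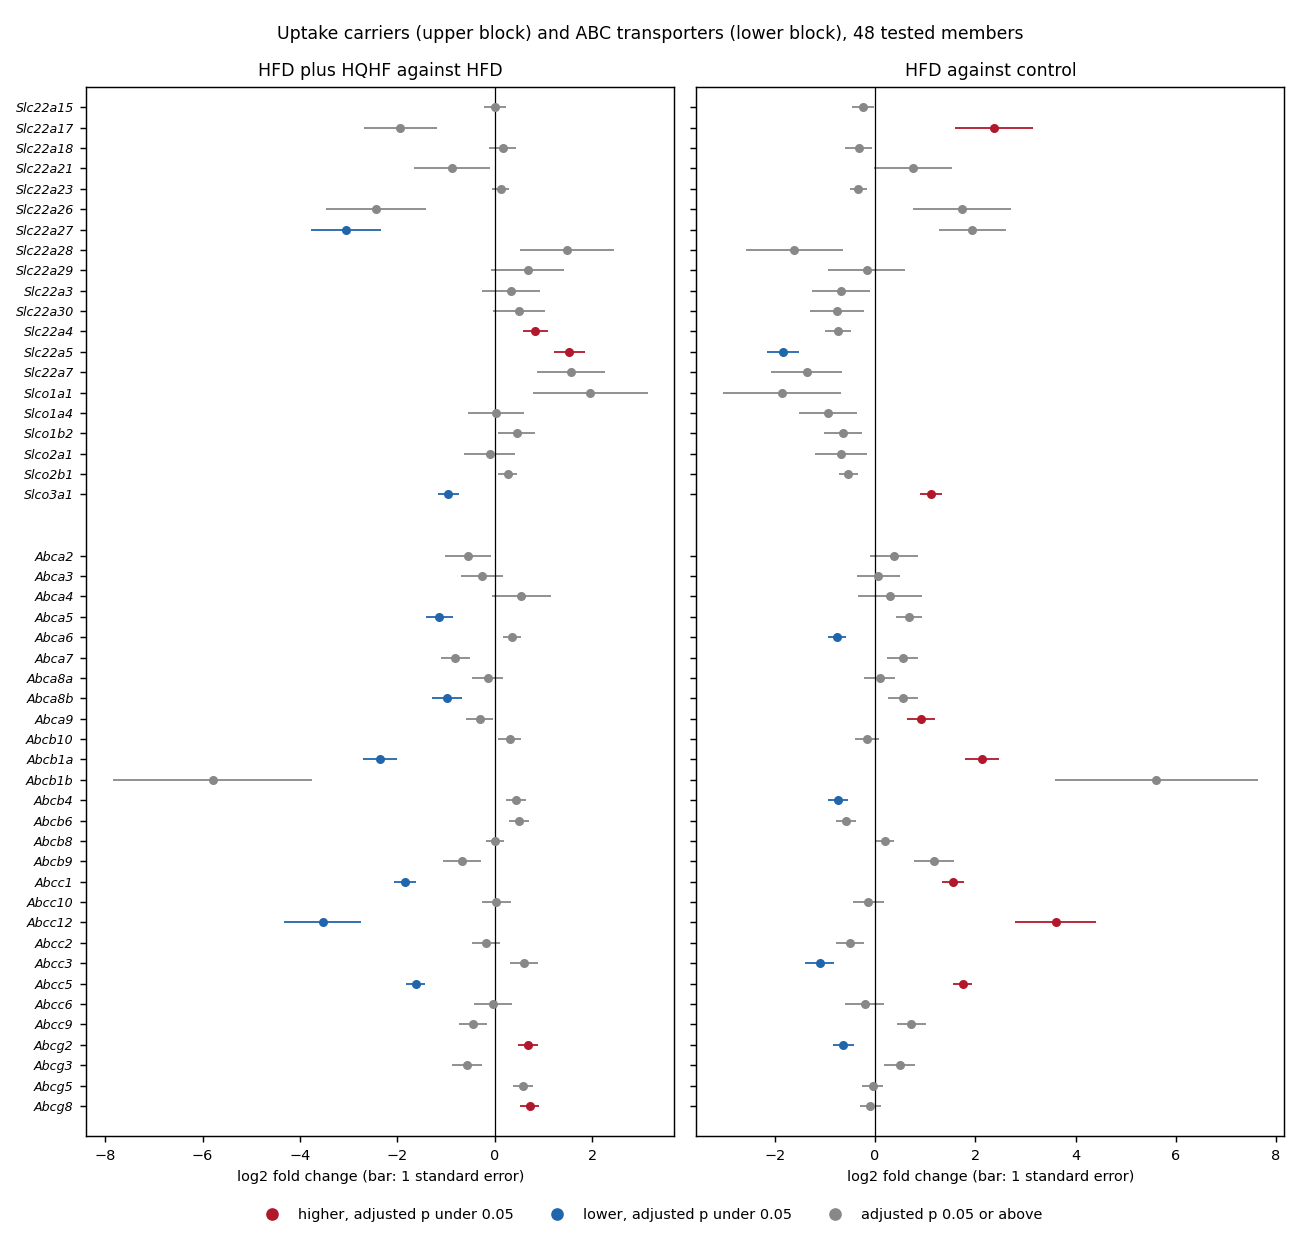
Log2 fold change of 48 of the 50 tested members, with bars of 1 standard error, in HFD plus HQHF against HFD livers (left) and HFD against control livers (right); red points were called higher, blue points lower, and grey points were not called. Abcb1a, Abcc1, Abcc5 and Abcc12 lie at positive values on the right and at negative values on the left, and most grey uptake carriers on the right lie below 0.

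Directions near 0 depended on how libraries were scaled. TMM factors were 1.20 to 1.42 in HFD libraries and 0.763 to 0.939 in the other 6, and scaling by library totals instead raised the median of all genes in HFD against control livers to 0.66. With totals the median was 0.06 for uptake carriers and 0.81 for ABC transporters. Totals moved the median of all genes and of both classes by like amounts, so the gaps between them are not an independent check, and the difference between classes was not tested. The medians with totals in HFD plus HQHF against HFD livers were -0.29 for uptake carriers and -0.71 for ABC transporters, beside -0.62 for all genes. The 7 members called higher and Slc22a5, called lower, in HFD against control livers were also called with totals, whereas Abca6, Abcb4, Abcc3 and Abcg2 were not. The 8 members called lower and Slc22a5, called higher, in HFD plus HQHF against HFD livers were also called with totals, whereas Slc22a4, Abcg2 and Abcg8 were not. With totals 15 members were called higher and 1 lower in HFD against control livers, and 1 higher and 18 lower in HFD plus HQHF against HFD livers. Calls over all genes with totals were also mostly higher in the first comparison and mostly lower in the second. In these directions the called share of all genes was larger than that of the members, so these counts are no result about the family.

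**Figure D2:**
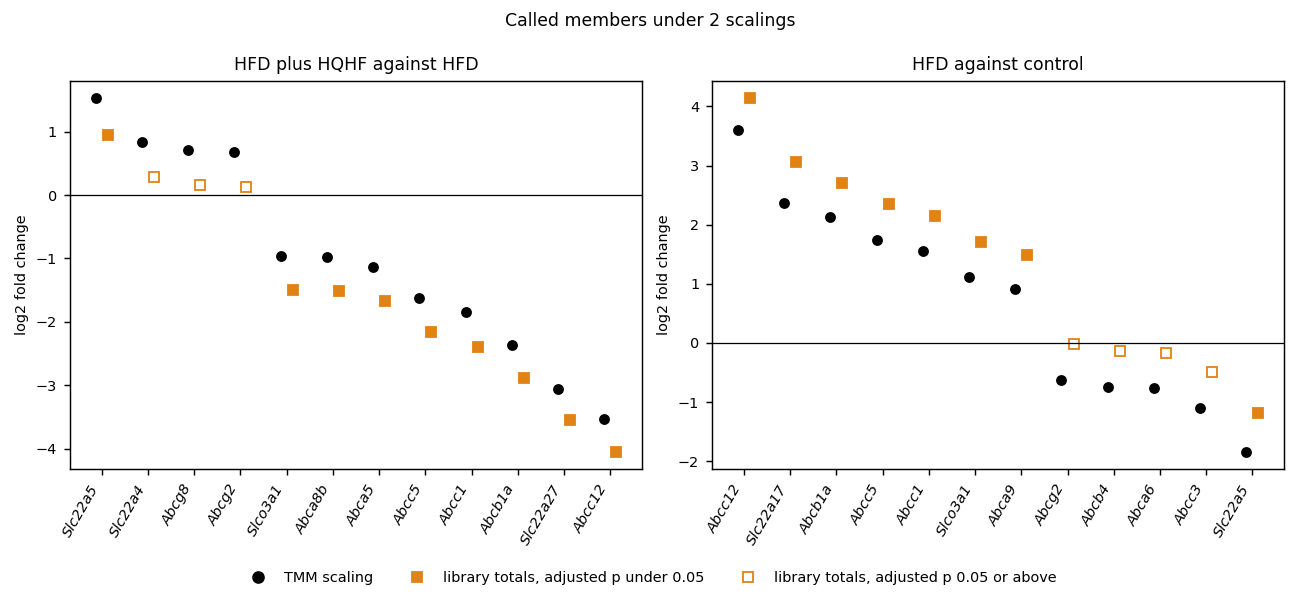
Log2 fold change of the members called in HFD plus HQHF against HFD livers (left) and HFD against control livers (right), with TMM scaling (black circles) and with library totals (orange squares, filled where the adjusted p was under 0.05). No member changed sign between the scalings, and the 7 open squares, at -0.50 to -0.03 on the right and 0.13 to 0.28 on the left, are the calls that totals did not give.

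A ratio of reads within a library does not depend on scaling. Reads of the 34 uptake carriers per read of the 32 ABC transporters were 0.765, 0.848 and 0.511 in HFD plus HQHF livers, 0.589, 0.512, 0.561 and 0.360 in HFD livers and 0.664, 0.588 and 0.562 in control livers. HFD 4 had the lowest ratio and HFD plus HQHF 1 and 2 had the highest, and the groups overlapped. Summed uptake carrier RNA was 1589, 1881 and 1643 CPM in HFD plus HQHF livers, 1439.6, 1349.6, 1101 and 804 CPM in HFD livers and 1863, 1881 and 1966 CPM in control livers. Every HFD library lay below the other 6 in this sum, while in CPM of all counts the sums overlapped, at 1308 to 1766 in HFD plus HQHF livers, 1006 to 1729 in HFD livers and 1499.7 to 1677 in control livers. Slco1b2 held the largest part of it, and without Slco1b2 the sums were 1118, 1254 and 1196 CPM in HFD plus HQHF livers, 915, 907, 687 and 671 CPM in HFD livers and 1179, 1256 and 1505 CPM in control livers. ABC transporters summed to 2078, 2218 and 3213 CPM in HFD plus HQHF livers, 2444, 2637, 1962 and 2232 CPM in HFD livers and 2806, 3197 and 3500.1 CPM in control livers. Here HFD livers lay below control livers and overlapped HFD plus HQHF livers, and in CPM of all counts the order turned, at 1710.0 to 2719 in HFD plus HQHF livers, 2765 to 3213 in HFD livers and 2413 to 2852 in control livers, with HFD 3 and 4 below the highest control library. In whole tissue, fewer cells of a type and less RNA per cell cannot be told apart.

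Slc22a5 (ENSMUSG00000018900) encodes OCTN2, the carrier that brings carnitine into cells, which need it to move long-chain fatty acids into mitochondria. It was the uptake carrier called lower in HFD against control livers. Slc22a5 RNA was at 80.9, 89.3 and 100.3 CPM in HFD plus HQHF livers, 22.5, 16.5, 52.8 and 33.4 CPM in HFD livers, and 103, 99.1 and 134 CPM in control livers. Each HFD library lay below the lowest of the other 6. Its fitted log2 fold change was -1.84 ± 0.33 (SE), with an adjusted p of 0.00553 in HFD against control livers, a 3.58-fold lower level. It was 1.53 ± 0.32 (SE), with an adjusted p of 0.0136 in HFD plus HQHF against HFD livers, a 2.88-fold higher level. With library totals the log2 values were -1.19 (adjusted p = 0.0182) and 0.94 (adjusted p = 0.0488). The other 2 tested carnitine and zwitterion carriers were low. Slc22a4, which carries ergothioneine, rose in HFD plus HQHF against HFD livers with a log2 fold change of 0.83 and an adjusted p of 0.0456, a call made under 3 of 19 other settings. Leaving out any 1 mouse ended it, at 0.59 to 0.96 (adjusted p = 0.0528 to 0.155). In HFD against control livers its log2 fold change was -0.74 with an adjusted p of 0.0550. Slc22a21, a carnitine carrier of the mouse, was at 0 to 0.490 CPM and was not called.

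The organic anion transporting polypeptides (OATPs) were represented by 12 Slco genes, of which 6 were tested. In both HFD against control livers and HFD plus HQHF against HFD livers 1 of the 6 was called, beside 26.2% and 18.9% of all genes in either direction. This was Slco3a1 (ENSMUSG00000025790), an anion carrier expressed in many tissues. Slco3a1 RNA was at 4.05, 4.85 and 4.81 CPM in HFD plus HQHF livers, 9.28, 7.22, 7.12 and 11.8 CPM in HFD livers, and 3.28, 4.48 and 4.51 CPM in control livers. Its HFD values lay above those of the other 6 libraries without overlap. On the log2 scale the change was 1.12 ± 0.22 (SE), with an adjusted p of 0.00781 in HFD against control livers and -0.95 ± 0.22 (SE), with an adjusted p of 0.0174 in HFD plus HQHF against HFD livers. Without HFD plus HQHF 1 or 2 the second call was not made, with values of -0.87 (adjusted p = 0.0779) and -0.99 (adjusted p = 0.0565).

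The OATPs typical of hepatocytes showed lower mean levels in HFD than in control livers after TMM scaling but did not pass the test. Slco1b2, which takes up bile acids, bilirubin conjugates and many drugs, was at 471, 626 and 447 CPM in HFD plus HQHF livers, 525, 442, 413 and 132 CPM in HFD livers, and 684, 625 and 461 CPM in control livers. HFD 4 was the lowest and the groups overlapped. The log2 fold change was -0.64 ± 0.38 (SE), with an adjusted p of 0.226 in HFD against control livers, and 0.45 ± 0.38 (SE), with an adjusted p of 0.423 in HFD plus HQHF against HFD livers. With library totals these Slco1b2 values were -0.058 and -0.089.

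Slco1a1, a carrier of steroid sulfates and bile acids that is higher in male than in female mouse liver, was at 211, 317 and 129 CPM in HFD plus HQHF livers, 136, 63.1, 25.3 and 0.309 CPM in HFD livers, and 179, 187 and 246 CPM in control livers. The 4 HFD mice differed among themselves far more than the mice of the other groups, and HFD 4 held 18 reads. HFD values lay below control values without overlap. The fit gave a log2 fold change of -1.86 ± 1.17 (SE), with an adjusted p of 0.267 in HFD against control livers and 1.96 ± 1.18 (SE), with an adjusted p of 0.265 in HFD plus HQHF against HFD livers. Without HFD 4 the values were -1.44 (adjusted p = 0.0946) and 1.54 (adjusted p = 0.0933).

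Slco1a4, a close relative that carries digoxin and other anions, was at 77.2, 51.4 and 86.3 CPM in HFD plus HQHF livers, 26.6, 29.8, 57.0 and 169 CPM in HFD livers, and 128, 164 and 112 CPM in control livers. HFD 4 was the highest library for Slco1a4 and the lowest for Slco1a1. It was not called in either comparison with HFD livers, with log2 fold changes of -0.93 ± 0.58 (SE), with an adjusted p of 0.252 in HFD against control livers, and 0.02 ± 0.58 (SE), with an adjusted p of 0.982 in HFD plus HQHF against HFD livers. Without HFD 4 the first value was -1.83 (adjusted p = 0.00638), a call, and the second was 0.92 (adjusted p = 0.0743). Slco1a1 and Slco1a4 are similar in sequence, so reads may have been divided between them in ways that the counts do not show. Slco2b1, a carrier of steroid sulfates found in several tissues, was at 108, 107 and 175 CPM in HFD plus HQHF livers, 112, 127, 88.1 and 108 CPM in HFD livers, and 159, 148 and 165 CPM in control livers. Its HFD values lay below the control values without overlap, at a log2 fold change of -0.53 ± 0.20 (SE), with an adjusted p of 0.0686, and the sign was positive with library totals (0.06). Slco2b1 was called lower with DESeq2 and without HFD plus HQHF 4, at -0.57 (adjusted p = 0.0296) and -0.54 (adjusted p = 0.0263). The value was 0.26 ± 0.20 (SE), with an adjusted p of 0.376 in HFD plus HQHF against HFD livers. Slco2a1, the prostaglandin carrier, ran from 20.4 to 119 CPM over the 10 libraries and was not called.

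**Figure D3:**
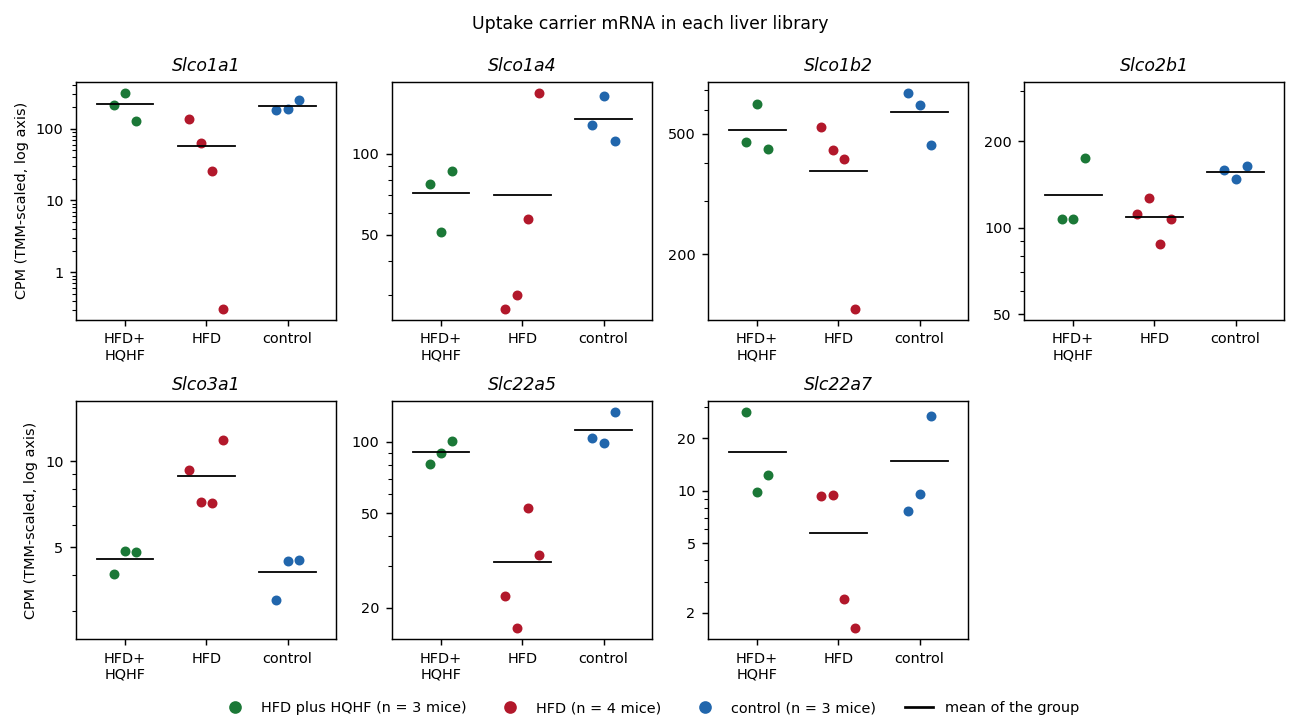
TMM-scaled CPM (log axis, scaled separately per gene) of 7 uptake carriers in each library of HFD plus HQHF, HFD and control livers; points are mice and lines are group means. Slc22a5 is low and Slco3a1 high in each of the 4 HFD mice, while Slco1a1 runs from 136 to 0.309 CPM among HFD mice.

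Among the organic cation carriers, Slc22a3, encoding OCT3, ran from 1.52 to 10.6 CPM over the 10 libraries and was not called. Slc22a2, the cation carrier of kidney, held 4 reads, all of them in HFD 3.

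Of 11 organic anion carriers of family 22, 6 were tested and 1 was called, lower in HFD plus HQHF against HFD livers, beside 11.1% of all genes. Slc22a7, which encodes the hepatic anion carrier OAT2, was at 28.3, 9.78 and 12.3 CPM in HFD plus HQHF livers, 9.28, 9.45, 2.41 and 1.63 CPM in HFD livers, and 7.69, 9.64 and 26.8 CPM in control livers. HFD values lay below the HFD plus HQHF values and overlapped the control values. Its fitted log2 fold change was -1.37 ± 0.70 (SE), with an adjusted p of 0.176 in HFD against control livers and 1.56 ± 0.70 (SE), with an adjusted p of 0.143 in HFD plus HQHF against HFD livers. Slc22a27, a rodent carrier under 5 CPM in each group, fell in HFD plus HQHF against HFD livers with a log2 fold change of -3.06 and an adjusted p of 0.0180, a call not made without HFD plus HQHF 1 or 4, at -2.64 (adjusted p = 0.0693) and -2.81 (adjusted p = 0.0592). Its log2 fold change was 1.94 with an adjusted p of 0.0519 in HFD against control livers. Slc22a26 to Slc22a30 are a cluster of similar rodent genes, so their counts may be divided between copies. Among the other carriers of family 22, Slc22a17 rose in HFD against control livers with a log2 fold change of 2.37 and an adjusted p of 0.0451. This call was made under 5 of 18 other settings, and leaving out any 1 mouse except HFD 1 or HFD 2 ended it, at 1.35 to 2.85 (adjusted p = 0.0555 to 0.144). Without HFD 3 its value was 1.35 with an adjusted p of 0.0893. HFD 3, which held the most adipocyte marker RNA of the 10 libraries, also held the most Slc22a17. In CPM of all counts Slc22a17 was at 4.75 in HFD 3, 2.999 in HFD plus HQHF 3 and 6.83 in control 2, and the part of fat RNA in its call was not tested.

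Abcb1a, Abcc1, Abcc5 and Abcc12, which were under 20 CPM in each of the 10 libraries, rose in HFD against control livers and fell in HFD plus HQHF against HFD livers. Abcc5 (ENSMUSG00000022822), which exports cyclic nucleotides and organic anions in many cell types, was at 3.62, 3.78 and 3.24 CPM in HFD plus HQHF livers, 10.05, 10.7, 9.11 and 14.0 CPM in HFD livers, and 2.99, 3.13 and 3.68 CPM in control livers. The HFD values lay above those of the other 6 libraries without overlap. Its log2 fold change was 1.75 ± 0.19 (SE), with an adjusted p of 0.000932 in HFD against control livers, a 3.36-fold higher level, and -1.63 ± 0.19 (SE), with an adjusted p of 0.00207 in HFD plus HQHF against HFD livers. Abcc1 (ENSMUSG00000023088), which exports glutathione conjugates and leukotrienes and is low in resting hepatocytes, was at 3.36, 2.35 and 3.06 CPM in HFD plus HQHF livers, 12.0, 7.56, 10.1 and 12.3 CPM in HFD livers, and 3.23, 4.10 and 3.36 CPM in control livers. Again the HFD values lay above the rest without overlap. Abcc1 had a log2 fold change of 1.55 ± 0.22 (SE), with an adjusted p of 0.00261 in HFD against control livers, and -1.84 ± 0.22 (SE), with an adjusted p of 0.00210 in HFD plus HQHF against HFD livers. Abcc12, an ABCC member of little-known function under 5 CPM in each group, rose in HFD against control livers with a log2 fold change of 3.61 (adjusted p = 0.0116) and fell in HFD plus HQHF against HFD livers with -3.54 (adjusted p = 0.0160). The first of these calls was not made without control 3, at 3.30 (adjusted p = 0.0534). The second was not made without HFD plus HQHF 1 or 2, at -3.33 (adjusted p = 0.0730) and -3.38 (adjusted p = 0.0720).

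Abcb1a (ENSMUSG00000040584) encodes a P-glycoprotein, a pump that expels many drugs and is found in hepatocytes, immune cells and endothelium. Abcb1a RNA was at 2.07, 2.82 and 1.86 CPM in HFD plus HQHF livers, 8.80, 11.2, 6.84 and 19.4 CPM in HFD livers, and 2.26, 3.10 and 2.54 CPM in control livers. The lowest HFD library was above the highest of the other 6. Its log2 fold change was 2.13 ± 0.35 (SE), with an adjusted p of 0.00383 in HFD against control livers, a 4.38-fold higher level. It was -2.36 ± 0.35 (SE), with an adjusted p of 0.00394 in HFD plus HQHF against HFD livers, a 5.14-fold lower level. Its neighbour and close copy Abcb1b, the other drug-pumping P-glycoprotein of the mouse, was at 1.61, 0.522 and 0.654 CPM in HFD plus HQHF livers, 2.87, 2.92, 197 and 1.67 CPM in HFD livers, and 0.814, 1.26 and 1.05 CPM in control livers. HFD 3 held 10052 reads of Abcb1b against 20 to 159 reads in each of the other 9. The log2 fold change of 5.62 ± 2.02 (SE), with an adjusted p of 0.0712 in HFD against control livers therefore rests on HFD 3, and without HFD 3 it was 1.26 (adjusted p = 0.0552). In HFD plus HQHF against HFD livers the value was -5.79 ± 2.04 (SE), with an adjusted p of 0.0782, and without HFD 3 it was -1.43 (adjusted p = 0.0412). The remaining 3 HFD mice held 1.67 to 2.92 CPM, above the 0.522 to 1.61 CPM of the other 6. Abcb1a and Abcb1b are similar in sequence, and counts may be divided between them. HFD 3 had the lowest Abcb1a value of the HFD mice.

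HFD 3 differed in other ways. It held 29.2 CPM of Adipoq, the hormone gene of fat cells, against at most 0.998 CPM in the other 9 libraries, and its adipocyte markers summed to 238 CPM against 10.2 to 81.9 CPM in the other 9. In CPM of all counts, Adipoq and Abcb1b were at 41.2 and 278 in HFD 3, at 1254 and 18.8 in HFD plus HQHF 3, and at 4543 and 31.3 in control 2. The part of fat RNA in the Abcb1b value was not tested.

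Abcb4 (ENSMUSG00000042476), the third gene of this group on chromosome 5, encodes the flippase that delivers phosphatidylcholine to bile. Abcb4 RNA was at 403, 393 and 639 CPM in HFD plus HQHF livers, 362, 325, 338 and 394 CPM in HFD livers, and 573, 567 and 644 CPM in control livers. HFD values lay below control values without overlap, and HFD plus HQHF 4 stood with the control mice while HFD plus HQHF 1 and 2 stood nearer the HFD mice. On the log2 scale the change was -0.75 ± 0.20 (SE), with an adjusted p of 0.0229 in HFD against control livers and 0.43 ± 0.20 (SE), with an adjusted p of 0.148 in HFD plus HQHF against HFD livers. With library totals the first value was -0.14 (adjusted p = 0.567), and without control 1 or 4 the call was not made, at -0.78 (adjusted p = 0.0589) and -0.69 (adjusted p = 0.0674).

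Promoter sequences are shown for the 3 P-glycoprotein family genes of chromosome 5, which differed in level and direction, and for Slc22a5 and Abcc5, the carrier and the pump with the smallest adjusted p in HFD against control livers. RefSeq gave a promoter for 53 of the 66 members (build GRCm38.p6, 250 bases before to 50 bases after the annotated start, 5′ to 3′ on the gene's strand). Each was searched on both strands for 5 motifs, GTTAAT (an HNF1 partial site), TTCNNNGAA (STAT5), TGACNNNGC (antioxidant response element core), GCGTG (xenobiotic response element core) and AGGTCA (nuclear receptor partial site), and matches stand in capitals. A match in the reverse orientation appears as its reverse complement.
Abcb1a, chr5:8566841-8567140, plus strand: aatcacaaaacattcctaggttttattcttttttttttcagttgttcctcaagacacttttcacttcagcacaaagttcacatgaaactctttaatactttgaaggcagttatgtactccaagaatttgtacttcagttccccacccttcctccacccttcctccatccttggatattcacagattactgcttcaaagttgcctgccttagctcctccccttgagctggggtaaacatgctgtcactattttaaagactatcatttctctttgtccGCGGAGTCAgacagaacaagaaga
Abcb1b, chr5:8797897-8798196, plus strand: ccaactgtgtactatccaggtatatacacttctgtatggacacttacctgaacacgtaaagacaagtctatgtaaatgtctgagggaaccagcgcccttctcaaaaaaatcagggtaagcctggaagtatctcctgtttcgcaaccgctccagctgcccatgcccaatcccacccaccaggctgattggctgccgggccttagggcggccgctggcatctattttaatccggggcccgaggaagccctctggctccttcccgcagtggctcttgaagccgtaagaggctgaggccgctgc
Abcb4, chr5:8893471-8893770, plus strand: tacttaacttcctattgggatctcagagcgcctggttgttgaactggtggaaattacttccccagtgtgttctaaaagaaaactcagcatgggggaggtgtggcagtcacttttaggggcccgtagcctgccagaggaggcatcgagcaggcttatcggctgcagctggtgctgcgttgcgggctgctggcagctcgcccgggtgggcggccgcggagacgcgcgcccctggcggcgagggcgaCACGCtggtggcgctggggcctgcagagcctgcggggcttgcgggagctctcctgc
Slc22a5, chr11:53891654-53891953, minus strand: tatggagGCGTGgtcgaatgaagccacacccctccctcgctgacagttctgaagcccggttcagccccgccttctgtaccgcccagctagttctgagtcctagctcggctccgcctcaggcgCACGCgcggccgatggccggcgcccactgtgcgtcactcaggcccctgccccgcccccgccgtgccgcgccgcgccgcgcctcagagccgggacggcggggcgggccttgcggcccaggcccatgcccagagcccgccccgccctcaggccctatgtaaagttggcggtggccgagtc
Abcc5, chr16:20426345-20426644, minus strand: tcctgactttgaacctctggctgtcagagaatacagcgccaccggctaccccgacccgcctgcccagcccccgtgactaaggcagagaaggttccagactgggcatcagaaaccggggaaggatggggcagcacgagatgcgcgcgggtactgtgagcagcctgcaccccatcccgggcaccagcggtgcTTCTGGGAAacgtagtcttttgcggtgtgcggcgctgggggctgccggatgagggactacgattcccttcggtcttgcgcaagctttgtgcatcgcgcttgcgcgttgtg
Abcb1a held 1 antioxidant response element core, Abcb4 held 1 xenobiotic response element core, Slc22a5 held 2 xenobiotic response element cores, and Abcc5 held 1 STAT5 motif. The letters of the 5 motifs were not found in the Abcb1b window. These motifs are short, and among 32851 promoters of the same length 7.1% held GTTAAT, 8.3% TTCNNNGAA, 12.4% TGACNNNGC, 32.4% GCGTG and 16.3% AGGTCA. A match is a description of the letters and not a known binding site.

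Among the other canalicular exporters, Abcg2 and Abcg8 were called and Abcc2 and Abcg5 were not. Abcg2, a pump for urate, sulfate conjugates and drugs, was at 103, 98.5 and 97.2 CPM in HFD plus HQHF livers, 80.8, 55.1, 68.4 and 44.0 CPM in HFD livers, and 111, 74.2 and 104 CPM in control livers. HFD and control livers overlapped, and HFD values lay below those of HFD plus HQHF livers without overlap. The log2 fold change was -0.63 ± 0.21 (SE), with an adjusted p of 0.0452 in HFD against control livers, and 0.68 ± 0.21 (SE), with an adjusted p of 0.0443 in HFD plus HQHF against HFD livers. Both calls were close to the threshold and were made under 5 and 8 of 19 other settings. Leaving out any 1 mouse except HFD 1, HFD 3 or control 3 ended both, at -0.64 to -0.50 (adjusted p = 0.0546 to 0.151) and 0.54 to 0.70 (adjusted p = 0.0502 to 0.123), and with library totals the values were -0.03 (adjusted p = 0.925) and 0.13 (adjusted p = 0.636).

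ABCG5 and ABCG8 work as a pair that secretes cholesterol and plant sterols into bile. Abcg8 was at 81.7, 84.5 and 94.6 CPM in HFD plus HQHF livers, 59.5, 60.5, 56.0 and 36.2 CPM in HFD livers, and 46.1, 71.6 and 52.3 CPM in control livers, and Abcg5 was at 73.9, 79.1 and 69.5 CPM in HFD plus HQHF livers, 48.6, 49.0, 62.3 and 38.9 CPM in HFD livers, and 36.8, 65.5 and 52.0 CPM in control livers. In both genes the 3 HFD plus HQHF mice lay above the 4 HFD mice and the 3 control mice in TMM-scaled CPM. Abcg8 rose in HFD plus HQHF against HFD livers by 0.71 ± 0.20 (SE), with an adjusted p of 0.0349, while Abcg5 had 0.58 ± 0.20 (SE), with an adjusted p of 0.0662. The values were -0.09 ± 0.20 (SE), with an adjusted p of 0.761 for Abcg8 and -0.05 ± 0.20 (SE), with an adjusted p of 0.876 for Abcg5 in HFD against control livers. With library totals the Abcg8 value in HFD plus HQHF against HFD livers was 0.16 (adjusted p = 0.559). Without any 1 of the HFD plus HQHF mice, HFD 1 or HFD 4, its call was not made, at 0.56 to 0.77 (adjusted p = 0.0511 to 0.0882). Abcg5 was called higher in HFD plus HQHF against HFD livers under 6 of 19 other settings. Without HFD 3 or control 1 it was at 0.70 (adjusted p = 0.0301) and 0.58 (adjusted p = 0.0444). Abcg5 was also called there with DESeq2, with the 2 groups alone and with the mouse number as a block. With library totals its value there was 0.020. In CPM of all counts HFD 3 held the most Abcg5 of the libraries compared, at 87.7. In HFD plus HQHF against control livers Abcg8 had the smallest p of the 50 tested members, at a log2 fold change of 0.62 ± 0.22 (SE) with an unadjusted p of 0.0166 and an adjusted p of 0.635.

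Abcc2, which exports bilirubin glucuronides and glutathione conjugates to bile, was at 361, 456 and 579 CPM in HFD plus HQHF livers, 579, 791, 330.0 and 417 CPM in HFD livers, and 705, 740.0 and 804 CPM in control livers. HFD mice spanned a wide range that overlapped both other groups. The fit gave a log2 fold change of -0.50 ± 0.29 (SE), with an adjusted p of 0.211 in HFD against control livers, and -0.18 ± 0.29 (SE), with an adjusted p of 0.682 in HFD plus HQHF against HFD livers. With library totals the first was 0.08 (adjusted p = 0.816) and the second -0.71 (adjusted p = 0.0457), a call. HFD plus HQHF values lay below control values without overlap at -0.69 ± 0.31 (SE), with an adjusted p of 0.682.

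**Figure D4:**
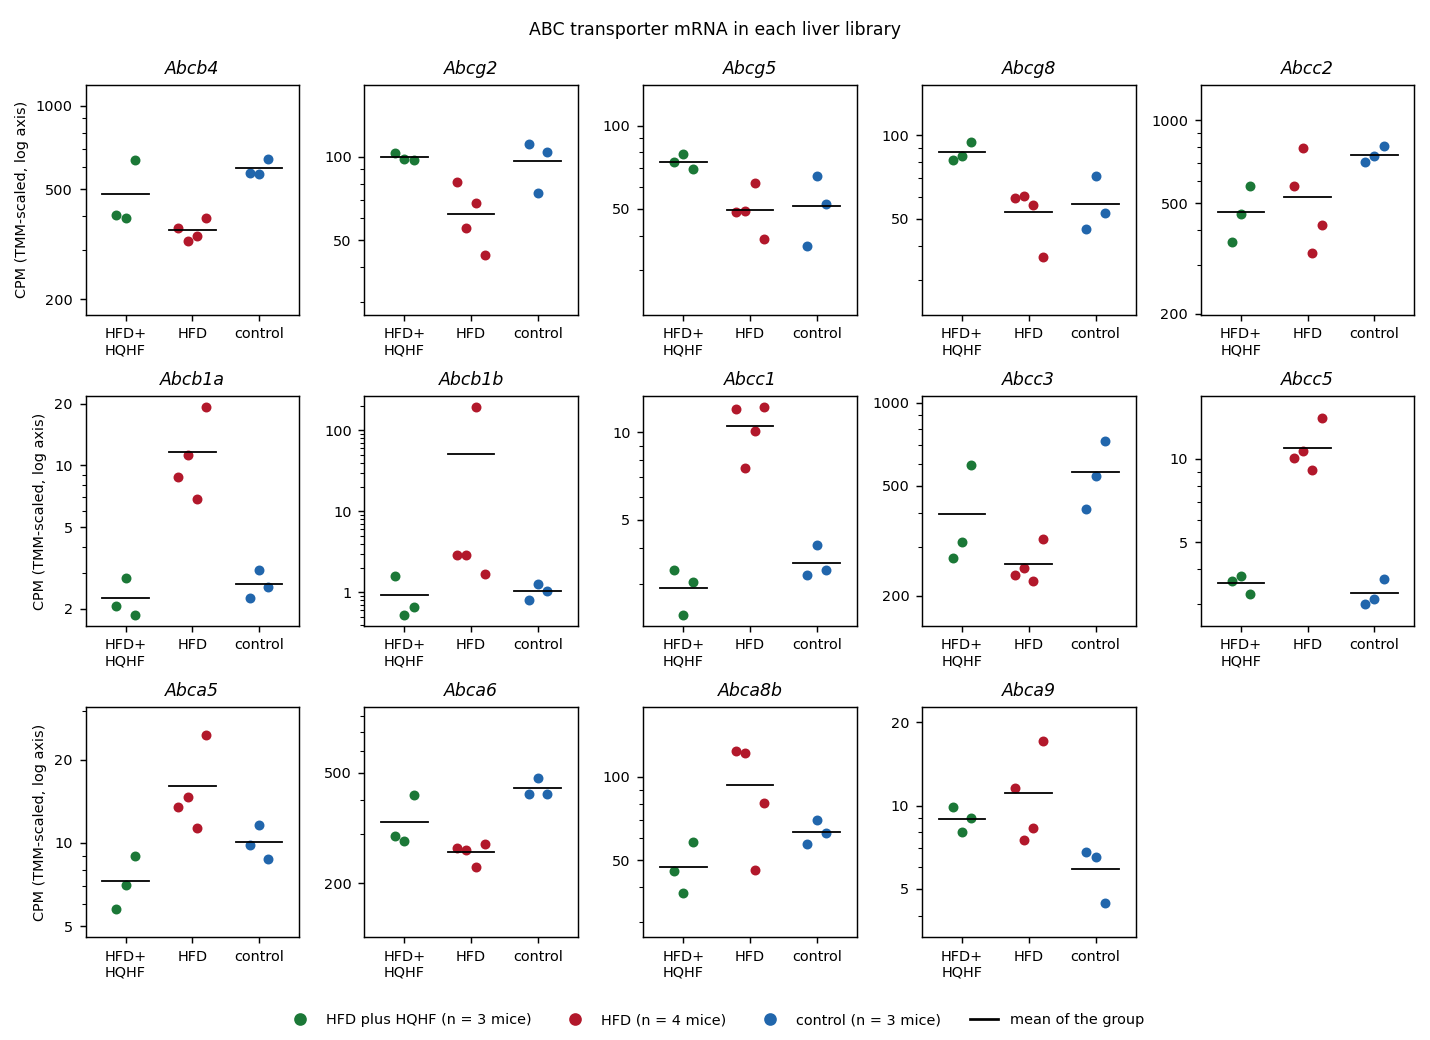
TMM-scaled CPM (log axis, scaled separately per gene) of 14 ABC transporters in each library of HFD plus HQHF, HFD and control livers; points are mice and lines are group means. Abcb1a, Abcc1 and Abcc5 are higher in each HFD mouse than in the other 6 mice, and the Abcb1b mean of HFD livers is set by HFD 3 at 197 CPM.

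Of the 4 basolateral exporters, 2 rose (Abcc1 and Abcc5) and 1 fell in HFD against control livers, beside 16.3% and 9.89% of all genes, and 2 fell in HFD plus HQHF against HFD livers, beside 11.1%. Abcc3, which returns glucuronides and bile acids to blood, was at 274, 312 and 596 CPM in HFD plus HQHF livers, 239, 253, 227 and 322 CPM in HFD livers, and 414, 543 and 726 CPM in control livers. HFD livers lay below control livers without overlap, and HFD plus HQHF 4 lay with the control mice. Its fitted log2 fold change was -1.11 ± 0.29 (SE), with an adjusted p of 0.0201 in HFD against control livers, and 0.60 ± 0.29 (SE), with an adjusted p of 0.160 in HFD plus HQHF against HFD livers. Without control 4 or with library totals the first call was not made, at -0.89 (adjusted p = 0.0776) and -0.50 (adjusted p = 0.132). Abcc6, through which hepatocytes release ATP, ran from 48.6 to 145 CPM over the 10 libraries and was not called.

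Among the 9 tested ABCA lipid transporters, 1 (Abca9) rose and 1 (Abca6) fell in HFD against control livers, beside 16.3% and 9.89% of all genes. Of the 9 values 8 were above 0, with a median log2 fold change of 0.38. The comparison of HFD plus HQHF with HFD livers gave 2 that fell, beside 11.1% of all genes, with a median of -0.31. With library totals 4 rose and none fell in HFD against control livers, and none rose and 4 fell in HFD plus HQHF against HFD livers. Calls over all genes with totals went mostly the same ways, with medians over all genes of 0.66 and -0.62. These counts are thus no result about the ABCA members. Abca6 was at 295, 284 and 416 CPM in HFD plus HQHF livers, 268, 264, 229 and 278 CPM in HFD livers, and 421, 481 and 420.3 CPM in control livers. The HFD values were below the control values without overlap, at a log2 fold change of -0.76 ± 0.18 (SE), with an adjusted p of 0.0134, and with library totals the value was -0.17 (adjusted p = 0.453). Abca6 had 0.35 ± 0.18 (SE), with an adjusted p of 0.179 in HFD plus HQHF against HFD livers. Abca9, a member of the same subgroup as Abca6, was at 9.88, 8.03 and 9.02 CPM in HFD plus HQHF livers, 11.6, 7.52, 8.31 and 17.1 CPM in HFD livers, and 6.80, 6.51 and 4.44 CPM in control livers. HFD values exceeded control values without overlap at 0.91 ± 0.28 (SE), with an adjusted p of 0.0372, and HFD plus HQHF values overlapped the HFD values at -0.31 ± 0.28 (SE), with an adjusted p of 0.448. The Abca9 call was made under 8 of 19 other settings, and leaving out any 1 mouse except HFD 2 or HFD 3 ended it, at 0.63 to 1.01 (adjusted p = 0.0505 to 0.124).

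Abca5, a lysosomal member of the subgroup, was at 5.77, 7.07 and 8.97 CPM in HFD plus HQHF livers, 13.5, 14.7, 11.3 and 24.5 CPM in HFD livers, and 9.85, 11.6 and 8.73 CPM in control livers. It fell in HFD plus HQHF against HFD livers without overlap, at -1.14 ± 0.27 (SE), with an adjusted p of 0.0181, and this call was not made without HFD plus HQHF 1 or 2, at -0.99 (adjusted p = 0.0821) and -1.11 (adjusted p = 0.0713). Its value was 0.67 ± 0.26 (SE), with an adjusted p of 0.0794 in HFD against control livers. Without HFD 3 it was 0.81 (adjusted p = 0.0380) and with library totals 1.25 (adjusted p = 0.00313), both calls. Abca8b, whose product takes part in cholesterol efflux, was at 45.7, 38.1 and 57.9 CPM in HFD plus HQHF livers, 124, 122, 45.9 and 80.7 CPM in HFD livers, and 57.1, 70.0 and 62.5 CPM in control livers. HFD 3 held less Abca8b than the other 3 HFD mice and lay within the range of HFD plus HQHF livers. Abca8b fell in HFD plus HQHF against HFD livers at -0.98 ± 0.31 (SE), with an adjusted p of 0.0475, a call made under 5 of 19 other settings, while its value in HFD against control livers was 0.56 ± 0.30 (SE), with an adjusted p of 0.189. Leaving out any 1 mouse except HFD 3 ended the call in HFD plus HQHF against HFD livers, at -1.15 to -0.82 (adjusted p = 0.0625 to 0.162). Without HFD 3 the value in HFD against control livers was 0.79 (adjusted p = 0.0195) and with library totals 1.13 (adjusted p = 0.00499), both calls. Abca8a, a near copy of Abca8b with which it may share reads, was not called and ran from 47.9 to 124 CPM.

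The organelle transporters Abcb6, Abcb8, Abcb9 and Abcb10, which act in mitochondria or lysosomes, were not called in any comparison. With library totals 2 of the 5 organelle ABCB members were called higher in HFD against control livers and 3 lower in HFD plus HQHF against HFD livers. These are also the directions of most calls over all genes with totals, so the counts are no result about these members. Abcb6, which carries porphyrins, had -0.58 ± 0.20 (SE), with an adjusted p of 0.0552 in HFD against control livers. Of 4 other tested ABC members, Abcc12 was called. Abcc9, a subunit of potassium channels and not an exporter, ran from 53.8 to 152 CPM, and Abcc10 and Abcg3 stayed under 6 CPM.

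In HFD plus HQHF against control livers the log2 fold changes of the 50 tested members ran from -1.11 (Slc22a27) to 0.84 (Abca4). No member was called by edgeR, and none was called by DESeq2 or under the other settings tried, while DESeq2 called 72 genes in all. At an unadjusted p under 0.05 there were 3 members, beside 7.29% of all genes, and the smallest adjusted p was 0.635. A p above the threshold does not show that these groups were alike. Slc22a5, for example, had -0.31 ± 0.35 (SE) and Abcc2 had -0.69 ± 0.31 (SE).

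A list of 13 regulators known to control transporter genes, chosen beside the members, was tested in the same fit. In HFD against control livers 4 of the 13 fell, beside 9.89% of all genes, and none rose, with a median log2 fold change of -0.43. With library totals none fell and 2 rose, where calls over all genes were mostly higher. In HFD plus HQHF against HFD livers 5 rose, beside 7.85% of all genes, and none fell, with a median of 0.51. With library totals 1 rose and 2 fell, where calls over all genes were mostly lower. Ppara, the fatty acid receptor that drives fat oxidation genes and Slc22a5 among its known targets, was at 428, 480.3 and 519 CPM in HFD plus HQHF livers, 193, 183, 311 and 205 CPM in HFD livers, and 522, 533 and 436 CPM in control livers. Each HFD value lay below the other 6. Its log2 fold change was -1.16 ± 0.21 (SE), with an adjusted p of 0.00571 in HFD against control livers, and 1.09 ± 0.21 (SE), with an adjusted p of 0.00954 in HFD plus HQHF against HFD livers. Nr1i2, encoding the xenobiotic receptor PXR, was at 93.7, 86.1 and 101 CPM in HFD plus HQHF livers, 34.1, 37.5, 41.8 and 59.9 CPM in HFD livers, and 69.3, 89.9 and 83.9 CPM in control livers. Here too the HFD values lay below the rest, at -0.90 ± 0.19 (SE), with an adjusted p of 0.00973 in HFD against control livers, and 1.11 ± 0.19 (SE), with an adjusted p of 0.00669 in HFD plus HQHF against HFD livers.

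Nr1i3, encoding the xenobiotic receptor CAR, had -1.21 ± 0.28 (SE), with an adjusted p of 0.0135 in HFD against control livers, and 1.33 ± 0.28 (SE), with an adjusted p of 0.0132 in HFD plus HQHF against HFD livers. Nr1h4, encoding the bile acid receptor FXR, had -0.86 ± 0.17 (SE), with an adjusted p of 0.00782 in HFD against control livers, and 0.79 ± 0.17 (SE), with an adjusted p of 0.0147 in HFD plus HQHF against HFD livers. Nr1h3, encoding the oxysterol receptor LXR alpha, which is known to induce Abcg5 and Abcg8, was at 95.2, 93.6 and 74.0 CPM in HFD plus HQHF livers, 59.5, 59.4, 63.0 and 43.8 CPM in HFD livers, and 64.1, 70.0 and 86.2 CPM in control livers, and rose in HFD plus HQHF against HFD livers at 0.64 ± 0.17 (SE), with an adjusted p of 0.0281. With library totals these 5 genes kept their signs, and of the 9 calls that for Nr1i2 in HFD plus HQHF against HFD livers was still made (0.55, adjusted p = 0.0439). Leaving out 1 mouse ended calls in HFD plus HQHF against HFD livers. For Nr1i3 this was HFD plus HQHF 2, at 1.01 (adjusted p = 0.0573), and for Nr1h4 HFD plus HQHF 1 or 2, at 0.71 to 0.77 (adjusted p = 0.0534 to 0.0670). For Nr1h3 it was HFD plus HQHF 1 or 2, HFD 1 or HFD 4, at 0.53 to 0.66 (adjusted p = 0.0510 to 0.104). The RNA levels of regulators say nothing of the activity of their proteins.

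Of 11 tested genes among other carriers and partner proteins, 1 rose and 3 fell in HFD against control livers, beside 16.3% and 9.89% of all genes. In HFD plus HQHF against HFD livers 2 rose and 1 fell, beside 7.85% and 11.1%. With library totals 5 rose and 1 fell in HFD against control livers, and none rose and 3 fell in HFD plus HQHF against HFD livers. Most calls over all genes with totals had these directions too, so the counts with totals are no result about the list. Slc10a1, which encodes the bile acid carrier NTCP, was at 343, 376 and 515 CPM in HFD plus HQHF livers, 224, 218, 235 and 162 CPM in HFD livers, and 537, 484 and 485 CPM in control livers. The HFD values lay below the rest, at -1.26 ± 0.20 (SE), with an adjusted p of 0.00335 in HFD against control livers, and 0.97 ± 0.20 (SE), with an adjusted p of 0.0110 in HFD plus HQHF against HFD livers. Slc47a1, encoding MATE1, which passes organic cations on to bile, had -0.65 ± 0.14 (SE), with an adjusted p of 0.0106 in HFD against control livers, and 0.63 ± 0.14 (SE), with an adjusted p of 0.0160 in HFD plus HQHF against HFD livers. Slc16a1, the lactate carrier, had -1.22 ± 0.33 (SE), with an adjusted p of 0.0237 in HFD against control livers, and 0.19 ± 0.33 (SE), with an adjusted p of 0.720 in HFD plus HQHF against HFD livers. Ezr, encoding ezrin, which ties membrane proteins to the cytoskeleton, had 1.93 ± 0.45 (SE), with an adjusted p of 0.0142 in HFD against control livers, and -1.57 ± 0.44 (SE), with an adjusted p of 0.0349 in HFD plus HQHF against HFD livers. With library totals the calls of Slc10a1 and Ezr in HFD against control livers and of Ezr in HFD plus HQHF against HFD livers were still made, and those of Slc47a1 and Slc16a1 and of Slc10a1 in HFD plus HQHF against HFD livers were not. The Ezr call in HFD plus HQHF against HFD livers was made under 8 of 19 other settings, and leaving out any 1 mouse except HFD 2 or HFD 3 ended it, at -1.58 to -1.19 (adjusted p = 0.0501 to 0.109). Without control 1, 3 or 4 the Ezr call in HFD against control livers was not made, at 1.86 to 1.93 (adjusted p = 0.0507 to 0.0557). Leaving out HFD 1 or any 1 control mouse ended the Slc16a1 call, at -1.31 to -1.15 (adjusted p = 0.0518 to 0.0750). Leaving out HFD plus HQHF 1 or 2 ended the Slc47a1 call in HFD plus HQHF against HFD livers, at 0.62 to 0.67 (adjusted p = 0.0513 to 0.0544).

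Markers of cell types moved with the groups. Of 8 hepatocyte markers 3 fell in HFD against control livers, beside 9.89% of all genes, and 2 rose in HFD plus HQHF against HFD livers, beside 7.85%. After TMM scaling their summed level was 81445 to 114066 CPM in HFD plus HQHF livers, 38972 to 79844 CPM in HFD livers and 104741 to 136804 CPM in control livers. In CPM of all counts the groups overlapped for Alb, a marker of this list. It was at 42226 to 64215 in HFD plus HQHF livers, 35054 to 76292 in HFD livers and 58143.5 to 92208 in control livers. Of 8 markers of recruited macrophages 7 rose in HFD against control livers, beside 16.3% of all genes, and 6 fell in HFD plus HQHF against HFD livers, beside 11.1%. Their sums were 30.0 to 36.8 CPM in HFD plus HQHF livers, 152 to 597 CPM in HFD livers and 30.5 to 40.4 CPM in control livers. Stellate cell and fibroblast markers rose in 6 of 7 cases in HFD against control livers, beside 16.3% of all genes, and fell in 5 of 7 in HFD plus HQHF against HFD livers, beside 11.1%, with sums of 317 to 429 CPM in HFD plus HQHF livers, 399 to 1194 CPM in HFD livers and 294 to 387 CPM in control livers. Without HFD plus HQHF 1 or 2 each of these 5 lower calls ended, and with 1 mouse left out that ended a call the adjusted p of the 5 was 0.0510 to 0.119. Of the higher calls in HFD against control livers, those of Ly6c2 and Dcn ended without control 1 or 4, at 1.72 to 1.85 (adjusted p = 0.0569 to 0.0583) and 0.95 to 1.01 (adjusted p = 0.0515 to 0.0520). Pdgfrb ended without control 1, at 1.79 (adjusted p = 0.0524), and Lrat without any 1 control mouse, at 0.98 to 1.18 (adjusted p = 0.0521 to 0.0861). Of the hepatocyte marker calls, Apoa1 in HFD against control livers ended without HFD 1, HFD 2, control 1 or control 4, at -1.05 to -0.64 (adjusted p = 0.0699 to 0.147), and Serpina1a in HFD plus HQHF against HFD livers ended without any 1 HFD plus HQHF mouse, at 0.98 to 1.11 (adjusted p = 0.0569 to 0.0730). In TMM-scaled CPM, Abcb1a, Abcc1, Abcc5 and Slco3a1 were high in HFD livers, and Slc22a5 and Slc10a1 were low. These genes moved with the markers between groups, while single HFD mice did not always follow. HFD 3 held the lowest hepatocyte marker sum, at 38972 CPM, but the highest Slc22a5 and Slc10a1 of the HFD mice, at 52.8 and 235 CPM. HFD 4 held the highest recruited macrophage sum, at 597 CPM, and the highest Abcb1a, Abcc1, Abcc5 and Slco3a1. The part of the markers in those results was not tested.

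Of 6 Kupffer cell markers 3 fell in HFD against control livers and 3 rose in HFD plus HQHF against HFD livers, beside 9.89% and 7.85% of all genes, with sums of 269 to 432 CPM in HFD plus HQHF livers, 184 to 309 CPM in HFD livers and 235 to 330.0 CPM in control livers. The 3 lower calls (Clec4f, Folr2 and Timd4) were not made with library totals, and without any 1 control mouse each ended, as did Clec4f without HFD plus HQHF 2, Folr2 without HFD plus HQHF 1, and both without HFD 2, 3 or 4. The values were then -0.90 to -0.63 (adjusted p = 0.0508 to 0.122) for Clec4f, -0.83 to -0.57 (adjusted p = 0.0513 to 0.103) for Folr2 and -1.71 to -1.31 (adjusted p = 0.0539 to 0.101) for Timd4. Of the 3 higher calls that of Clec4f was made with library totals, and it ended without HFD plus HQHF 1, at 0.93 (adjusted p = 0.0635), while that of Timd4 ended without HFD plus HQHF 1 or 2, at 1.45 to 1.51 (adjusted p = 0.1001 to 0.109). The 4 neutrophil markers rose in HFD against control livers, beside 16.3% of all genes, with sums of 5.14 to 16.2 CPM in HFD livers and 2.73 to 3.02 CPM in control livers. No endothelial marker of 6 and no B cell marker of 4 was called, and 2 of 5 T and NK cell markers rose in HFD against control livers, beside 16.3% of all genes. Cholangiocyte markers, which share Spp1 with the macrophage list, summed to 372 CPM in HFD 4 and to 18.9 to 96.0 CPM in the other 9 libraries. Of these 6 markers 1 rose in HFD against control livers, beside 16.3% of all genes, and 1 fell in HFD plus HQHF against HFD livers, beside 11.1%. Of 3 red blood cell markers 1, Alas2, was called lower in HFD against control livers, beside 9.89% of all genes. It was called higher in HFD plus HQHF against HFD livers, beside 7.85%. The 3 markers summed to 450 to 691 CPM in HFD plus HQHF livers and 361 to 1467 CPM in HFD livers. In control livers the sum was 391 to 738 CPM, and the groups overlapped. Each call of a neutrophil, T and NK cell, cholangiocyte or red blood cell marker ended when at least 1 of the control mice was left out. Pancreatic acinar markers summed to 1944 CPM in control 1 and to 4.23 to 18.2 CPM in the other 9. Of these 5 markers 1, Cela1, passed the filter. It was called lower in HFD against control livers, beside 9.89% of all genes. Leaving out any 1 mouse except control 3 or 4 ended the Cela1 call, at -4.74 to -0.15 (adjusted p = 0.0602 to 0.815), where the value nearest 0 was without control 1. Kidney proximal tubule markers summed to at most 0.0919 CPM, and Slc22a6 and Slc22a8, carriers typical of kidney, held 0 and 4 reads over the 10 libraries. Without control 1 and HFD 3 together, 9 members were called in HFD against control livers and 13 in HFD plus HQHF against HFD livers. With all 10 libraries 24% of the tested members were called in each comparison, beside 26.2% and 18.9% of all genes. No share of all genes under the other setting is given here, so its counts are no result about the family.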

How the data were processed

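Long RNA of 12 mouse livers was analysed, 4 per group, and the 12 small RNA samples were not analysed here. The authors deposited a table of raw counts per gene. Per the submitters' processing notes, HISAT2, RSEM and the build GRCm39 were used, and the sources used here give no version, role or strand setting. HFD plus HQHF 3 and control 2 were left out of comparisons. Counts of the other 10 libraries were filtered with filterByExpr by group, scaled with TMM and fitted with edgeR 4.0.16 (robust quasi-likelihood, 3 group means, R 4.3.3, limma 3.58.1), which assumes that most genes do not differ. P-values were adjusted by Benjamini-Hochberg over all 13832 genes, with calls under 0.05, and the SE is the absolute log2 fold change divided by the square root of F. The design allowed no batch term. The fit was checked on simulated counts. DESeq2 1.42.0, other scalings, other filters, other thresholds, a block and left-out libraries were alternatives. Low counts give wide errors, and reads carry no molecular identifiers.

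Members and lists were chosen with earlier results of these data known. Values per library are given for members called in at least 1 comparison with a group mean of at least 5 CPM, for the 3 most abundant of each class, and for a list of well-known transporters. Of the members counted, 2 are not reported here by name. Called members below 5 CPM have a log2 fold change and adjusted p, and others that are named were chosen after their values were seen. Symbols came from the deposited table, and RefSeq promoters were matched by gene.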

Additional observations from a re-analysis of the deposited data

Results flagged for a closer look

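Of 25 genes looked at in the 4 HFD mice, 1 had a mouse whose gap to the nearest of the others, divided by the range of the 4, exceeded Dixon's critical value for 4 samples at 95%. Chance gives this in about 5% of groups. Abcb1b, a drug-pumping P-glycoprotein, was at 197 CPM in HFD 3, and the next highest HFD mouse was at 2.92 CPM. HFD 3 also held the highest sum of adipocyte markers, and the part of these in the value was not tested.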

How the results depend on the processing

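Of the values of the 21 genes with full statistics, 340 of 398 under other settings in HFD against control livers, 330 of 398 in HFD plus HQHF against HFD livers and 383 of 398 in HFD plus HQHF against control livers kept direction and side of the threshold. The 12 members called in HFD against control livers became 0 with all 12 libraries, 20 at an adjusted p under 0.1 and 7 to 15 with 1 library left out. The 3 uptake calls became 6 with DESeq2, 0 with all 12 libraries and 6 at 0.1 (left out, 2 to 4), and the 9 ABC calls became 0, 14 at 0.1 and 5 to 12 with 1 left out. Of the members given in full, 10 were called, 0 with all 12 libraries and 6 to 12 with 1 left out. Over all genes the 3625 calls became 7195 with library totals (7041 higher and 154 lower), 7 with all 12 libraries, 2369 without control 1 and HFD 3 together, a setting chosen after seeing the data, and 1568 to 3882 with 1 left out, lowest without control 1.

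The 12 members called in HFD plus HQHF against HFD livers became 19 with library totals, 0 with all 12 libraries and 4 to 13 with 1 left out. The 4 uptake calls became 0 with all 12 libraries and 1 to 3 with 1 left out, and the 8 ABC calls became 14 with totals, 0 with all 12 libraries and 3 to 10 with 1 left out. Of the members given in full, 9 were called, 0 with all 12 libraries and 4 to 11 with 1 left out. The 2618 calls over all genes became 6633 with totals (137 higher and 6496 lower), 1 with all 12 libraries, 4210 at 0.1 and 633 to 3301 with 1 left out, lowest without HFD plus HQHF 1. With edgeR there were 0 genes called in HFD plus HQHF against control livers, with DESeq2 72, and in the fit of the 2 groups alone 1.

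The labels do not say that the mouse numbers pair the mice. Over 8 same-numbered pairs the correlation of deviations from group means was -0.054 to 0.119, and 1 pair exceeded 0.1. Such values cannot settle whether mice were matched by number. The fit with the mouse number as a block gave 1719 calls over all genes in HFD plus HQHF against HFD livers, 9 members called in HFD against control livers and 10 in HFD plus HQHF against HFD livers. With the block the log2 values in HFD plus HQHF against control livers turned sign to -0.39 (Slc22a7), -0.63 (Slco1a1) and 1.11 (Abcb1b).

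Other signs that turned were of log2 values. For HFD against control livers totals gave 0.061 (Slco2b1), 0.076 (Abcc2), 0.56 (Abcg5) and 0.50 (Abcg8), all 12 libraries gave -0.97 (Abca9), -0.00455 (Abcc1), 0.33 (Abcg5) and 0.29 (Abcg8), and leaving out 1 library gave -0.25 to 0.10 (Abcg5) and -0.23 to 0.055 (Abcg8). For HFD plus HQHF against HFD livers totals gave -0.55 (Slco1a4), -0.089 (Slco1b2), -0.29 (Slco2b1), -0.20 (Abca6) and -0.12 (Abcb4), a filter of at least 1 CPM in 3 libraries gave -0.014 (Slco1a4), all 12 libraries gave -0.32 (Slco1a4), 0.21 (Abca9) and 0.35 (Abcc1), the setting without control 1 and HFD 3 gave -0.062 (Slco1a4), and leaving out 1 library gave -0.26 to 0.92 (Slco1a4), -0.012 to 0.39 (Slco2b1) and -0.37 to 0.073 (Abcc2). For HFD plus HQHF against control livers all 12 libraries gave -0.14 (Slco3a1), -0.76 (Abca9), 0.35 (Abcc1) and -0.047 (Abcc5), the setting without control 1 and HFD 3 gave -0.12 (Slc22a7), and leaving out 1 library gave -0.41 to 0.95 (Slc22a7), -0.26 to 0.37 (Slco1a1), -0.82 to 0.11 (Abcb1b) and -0.12 to 0.16 (Abcg2). Totals change the level every gene is set against, and the 12-library fit adds 2 libraries with almost no albumin RNA. Beyond that the cause was not tested. With 3 or 4 mice a group, differences near the spread between mice cannot be told from none, and members under 5 CPM rest on few reads.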

Other observations

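HFD 4, picked out after its values were seen, lay at the end of the HFD range in several carriers. Of the 25 genes looked at with Dixon's critical value, 0 were flagged in HFD 4. Slco1a1 was at 0.309 CPM in HFD 4 and at 25.3 to 136 CPM in HFD 1 to 3. Slco1a4 was at 169 CPM in HFD 4 and at 26.6 to 57.0 CPM in HFD 1 to 3. Slco1b2 was at 132 CPM in HFD 4 and at 413 to 525 CPM in HFD 1 to 3. The rodent anion carriers Slc22a26 and Slc22a27 were at 8.42 and 7.98 CPM in HFD 4, while Slc22a28 was at 0.0516 CPM. In HFD 1, 2 and 3, Slc22a26 was at 0.493, 0.588 and 1.63 CPM, Slc22a27 at 1.57, 3.38 and 2.14 CPM, and Slc22a28 at 3.95, 1.78 and 0.686 CPM. HFD 4 thus combined the highest Slco1a4 of the HFD mice with the lowest Slco1a1 and Slco1b2.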
